A study of Mus musculus with 10 samples.

Results

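The class III receptor tyrosine kinases of the mouse are Kit, Flt3, Csf1r, Pdgfra and Pdgfrb, and their expression was followed in quiescent and proliferating B-cell progenitors. The 5 genes were taken by symbol from a deposited table of read counts for 55573 Ensembl genes, and each symbol matched 1 identifier. Polyadenylated RNA of bone marrow B-cells was sequenced in 10 libraries. Every library carried the genotype PAX5-ELN H2B-GFP, treated with doxycycline, with a time of 35 days. PAX5-ELN is a fusion of the B-lineage factor gene PAX5 with the elastin gene, known from B-cell acute lymphoblastic leukaemia, and H2B-GFP is a histone H2B tagged with a fluorescent protein and diluted at each division once its synthesis stops. The 5 GFP high libraries are labelled quiescent and the 5 GFP low libraries proliferating, so the fusion and the doxycycline are common to both groups. The promoters that drive the fusion and the tagged histone, the age of the mice and whether a library was pooled are not stated in the labels. Nothing in the labels ties a library to a separate mouse, so p-values measure the spread between these samples, which may be technical.

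Receptors of this class share an extracellular part of 5 immunoglobulin-like domains, a single membrane span and a kinase domain split by an insert. A dimeric ligand brings a pair of receptors together, the kinases phosphorylate each other, and the phosphotyrosines recruit adaptors, PI3-kinase, RAS activators and SRC-family kinases. Ubiquitin ligases of the CBL family and phosphatases end the signal. KIT binds stem cell factor (Kitl) and is found on blood stem cells, mast cells and early B-lineage cells. FLT3 binds FLT3 ligand (Flt3l) and marks multipotent and early lymphoid progenitors and dendritic cells. CSF1R binds CSF1 and IL-34 and is the receptor of the monocyte and macrophage lineage. Flt3 and Csf1r are textbook targets of repression by PAX5 at B-lineage commitment. PDGFRA and PDGFRB bind the platelet-derived growth factors and are receptors of mesenchymal cells and pericytes.

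The depth per library was 11347097 to 13838769 counts for GFP high, and 10640894 to 14858520 counts for GFP low. A floor of 3 counts in a library is 0.203 to 0.291 CPM, the count scaled to library size, and it covers counting error only. The B-lineage markers were present in both groups: 16 of 16 were above a mean of 1 CPM, with a summed level of 21511 to 24241 CPM with GFP high, against 17432 to 19028 CPM in GFP low. Libraries of the same number deviated together from their group means, with correlations of 0.248 to 0.353 across genes, and each library correlated best with its own number, so the numbers were taken as pairs. Libraries of the differing numbers 4 and 5 also correlated, at 0.292 to 0.321, which is above the lowest same-number value. Libraries numbered 4 and 5 stood apart from those numbered 1 to 3 (correlations of -0.304 to -0.165 between the 2 sets), and what separates the sets is not given in the labels. Both libraries numbered 3 had 2 to 9 Y-linked counts, against 309 to 2654 in the others. Of 12772 genes tested, 1538 were higher in GFP high and 1973 were lower. Of the 16 B-lineage markers 6 were higher, or 37.5% against 12.0% of all tested genes. Lower was 1, or 6.2% against 15.4%. With the pairs as a block in the test 12 were higher and 1 lower, or 75.0% against 20.7% and 6.2% against 21.0%.

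Of the 5 receptors, 3 were expressed and tested. Csf1r and Flt3 rose in GFP high, with log2 fold changes above 2, against 12.0% of all tested genes called higher (27.5% in either direction). Kit was the most abundant of them and was higher in GFP high in 5 of 5 numbered pairs, as were 22.9% of all tested genes. Its call depended on whether the pairs were modelled, and otherwise on the filter and the libraries used. With the replicate number as a block, all 3 were called higher, against 20.7% of all tested genes (41.8% in either direction). Pdgfra and Pdgfrb were at or under the floor in every library. In bulk samples like these, fewer expressing cells and less RNA per cell cannot be told apart.

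**Figure D1:**
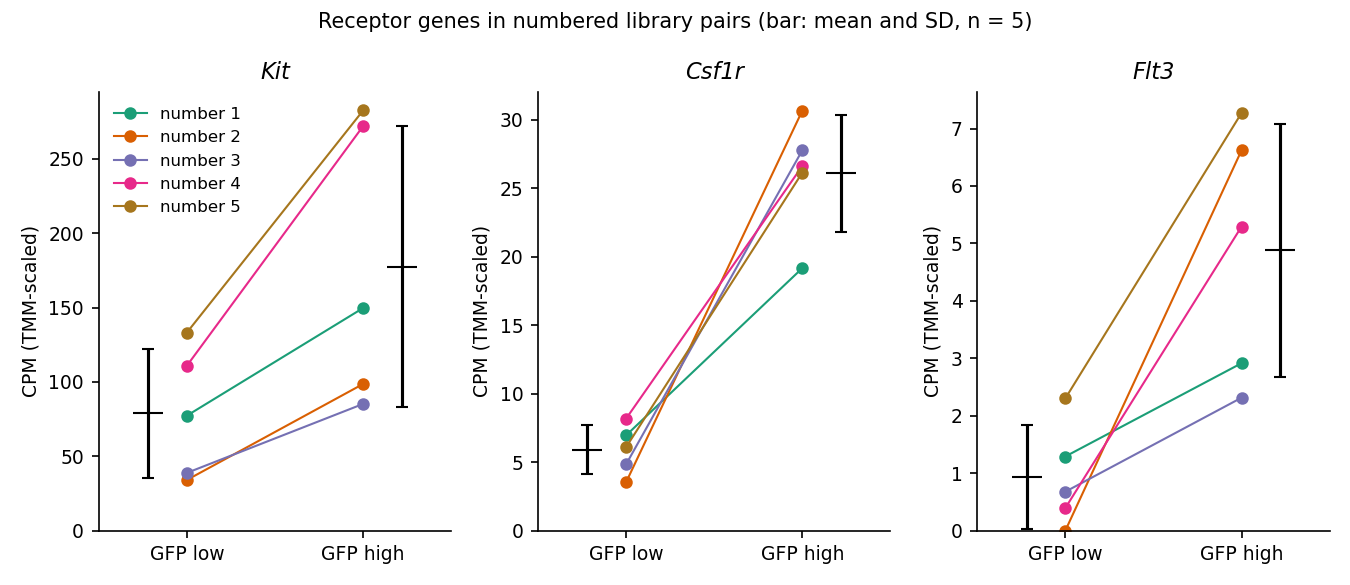
Levels of the expressed receptor genes in CPM (linear axes from 0) in GFP low and GFP high, with a line joining libraries of the same number and a black bar for the mean and SD of 5 libraries. All lines run upward, and the GFP low and GFP high points overlap for Kit, where library 5 of GFP low (133 CPM) lies above library 2 of GFP high (98.6 CPM).

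Kit (ENSMUSG00000005672, mm10 chromosome 5, 75574916 to 75656722, plus strand) had 149.7, 98.6, 85.2, 272 and 283 CPM in GFP high libraries 1 to 5. In GFP low libraries 1 to 5 it had 77.3, 34.1, 38.8, 111 and 133 CPM. Libraries 4 and 5 were the highest within both groups, and the groups overlapped. Within pairs the ratio was narrow, at 1.94, 2.90, 2.19, 2.45 and 2.12. Mean levels were 78.8 ± 43.5 CPM for GFP low and 178 ± 94.2 CPM for GFP high (SD, n = 5 per group). The log2 fold change of 1.17 ± 0.42 (SE) did not pass by edgeR, with an adjusted p of 0.0587, and 3.27% of tested genes had a larger one. With the replicate block it was 1.20 ± 0.083 and passed (adjusted p = 3.43e-07). Leaving out a single library let Kit pass in 3 of 10 cases: 1.33 with adjusted p = 0.0463 once library 2 of GFP high was dropped, 1.34 with adjusted p = 0.0399 for library 3 of GFP high, and 1.44 with adjusted p = 0.0305 for library 5 of GFP low. The change was as large in libraries 1 to 3 alone (1.17, adjusted p = 0.0197) as in libraries 4 and 5 alone (1.17, adjusted p = 2.91e-05).

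Upstream sequence is shown for Kit and Flt3, the expressed receptors for which RefSeq starts were matched in GRCm38.p6, the build of mm10. It is written 5′ to 3′ on the strand of the gene and stops before the first annotated transcribed base. Capitals mark matches to 4 motifs searched on both strands: GAGGAA, the core bound by PU.1 (Spi1); TGTGGT, the RUNX core; GGGCGG, the box of SP factors; and AGATAA, which erythroid zinc finger factors bind. Of 5 receptors 3 had an entry, and the one not shown is Pdgfra.
Kit, chr5:75574737-75574915, plus strand: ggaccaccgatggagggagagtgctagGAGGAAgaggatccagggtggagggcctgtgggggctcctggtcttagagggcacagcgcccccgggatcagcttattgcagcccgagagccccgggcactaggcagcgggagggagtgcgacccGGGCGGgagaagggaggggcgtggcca
Flt3, chr5:147400490-147400739, minus strand: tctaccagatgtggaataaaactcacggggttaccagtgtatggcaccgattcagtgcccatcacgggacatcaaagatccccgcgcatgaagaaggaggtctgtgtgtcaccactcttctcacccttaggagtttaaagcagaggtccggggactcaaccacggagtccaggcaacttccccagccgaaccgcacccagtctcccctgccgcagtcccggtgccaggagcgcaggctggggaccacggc
The 179 bases before Kit held 1 match to GAGGAA and 1 to GGGCGG, motifs found in 17.02% and 20.75% of windows of that length before 27025 genes. The 250 bases before Flt3 held 0 matches to any of the 4 motifs, which occur in 23.13%, 14.18%, 32.94% and 10.25% of such windows in the order given above. The 250 bases before the silent Pdgfra also held 0. A match is a description of letters and not of a bound site.

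Csf1r (ENSMUSG00000024621, chromosome 18, 61100598 to 61132149, plus strand) had 19.2, 30.7, 27.8, 26.6 and 26.1 CPM in GFP high libraries 1 to 5. It had 6.96, 3.53, 4.84, 8.18 and 6.09 CPM in GFP low libraries 1 to 5. The groups did not overlap, as for 7.92% of all tested genes in the same direction, and no set of numbers stood apart within either group. The pairs differed by 2.76, 8.68, 5.74, 3.26 and 4.29 times. Mean levels were 5.92 ± 1.81 CPM for GFP low and 26.1 ± 4.24 CPM for GFP high (SD, n = 5 per group). This is a log2 fold change of 2.14 ± 0.22 (edgeR, adjusted p = 3.53e-05), and 0.681% of tested genes had a larger one. At its 3′ end Csf1r shares 873 exonic bases, or 15.1% of its merged exons, with Hmgxb3 on the other strand. The sources used here do not say whether counting used strand, so reads in those bases cannot be told apart. For Hmgxb3 itself the log2 fold change was 0.21 ± 0.13 (adjusted p = 0.254).

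Flt3 (ENSMUSG00000042817, chromosome 5, 147330741 to 147400489, minus strand) was low: a library held 33 to 84 of its counts if GFP high, and 0 to 34 if GFP low. Its levels in GFP high libraries 1 to 5 were 2.92, 6.62, 2.31, 5.29 and 7.27 CPM. In GFP low libraries 1 to 5 they were 1.29, 0, 0.678, 0.393 and 2.30 CPM. The groups were adjacent without overlap, since the lowest GFP high value (2.31 CPM, library 3) barely exceeded the highest GFP low value (2.30 CPM, library 5). In pairs 1, 3, 4 and 5 the ratios were 2.26, 3.41, 13.5 and 3.16. In pair 2 the GFP low library had 0 counts, and against a floor of 3 counts in that library GFP high was at least 31.2-fold higher. Mean levels were 0.933 ± 0.898 CPM for GFP low and 4.88 ± 2.20 CPM for GFP high, a log2 fold change of 2.36 ± 0.70 (edgeR, adjusted p = 0.0244). The call was lost on dropping library 2 of GFP high (2.24, adjusted p = 0.0521), library 3 of GFP low (2.27, adjusted p = 0.0576) or library 4 of GFP low (2.17, adjusted p = 0.0541). It was also lost without both libraries numbered 3 (2.45, adjusted p = 0.0610) and in libraries 1 to 3 alone (2.60, adjusted p = 0.0627). With the replicate block it held (2.58 ± 0.64, adjusted p = 0.00607).

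Pdgfra (ENSMUSG00000029231, chromosome 5, 75152292 to 75198215) had 0 counts in all 10 libraries. Pdgfrb (ENSMUSG00000024620, chromosome 18, 61045150 to 61085061) had 2 counts in GFP high library 2 and 0 in the other libraries. Neither passed the filter on low counts, so neither was tested, and a difference between the groups was not detectable at this depth. Pdgfrb lies 15537 bases from Csf1r, so a silent and a changed receptor gene are neighbours there.

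To compare the receptors with each other, CPM was divided by the length of merged exons in kilobases (8.91 for Kit, 5.77 for Csf1r and 6.18 for Flt3). In GFP high, Kit had 19.9 ± 10.6, Csf1r 4.52 ± 0.735 and Flt3 0.791 ± 0.356 CPM per kb (SD, n = 5). In GFP low they had 8.85 ± 4.89, 1.03 ± 0.313 and 0.151 ± 0.145 CPM per kb. The order Kit, Csf1r, Flt3 held in each group without overlap between neighbours: the lowest Kit value in GFP high was 9.56 and the highest Csf1r value 5.31, and in GFP low these were 3.82 and 1.42. The lowest Csf1r and highest Flt3 values were 3.32 and 1.18 for GFP high, against 0.612 and 0.373 for GFP low. Pdgfrb and Pdgfra shared the last place.

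The balance between Kit and Csf1r can be read within a library, free of scaling between libraries. Per length, Kit exceeded Csf1r by 5.06, 2.08, 1.99, 6.62 and 7.00 times in GFP high libraries 1 to 5. In GFP low libraries 1 to 5 it exceeded Csf1r by 7.20, 6.25, 5.20, 8.78 and 14.2 times. The ratio was lower in GFP high in 5 of 5 pairs. The difference of -0.98 in mean log2 ratio did not pass in a two-sided exact permutation test over the 10 libraries (p = 0.0952). Sign flips of the 5 pairs gave a two-sided exact p = 0.0625, the smallest that 5 pairs allow.

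Among 58 receptor tyrosine kinase genes, the 5 of class III included, Kit ranked second per length in both groups, behind the ephrin receptor gene Epha2. Epha2 had 21.7 ± 4.49 CPM per kb in GFP high, which did not differ from Kit beyond the spread, and 13.6 ± 2.86 in GFP low. Csf1r took rank 4 in GFP high and rank 8 in GFP low. In GFP low its nearest neighbours above, Ltk (1.04 ± 0.556 CPM per kb), Kdr (1.27 ± 0.859) and Erbb3 (1.34 ± 0.613), did not differ from it beyond their spread. In GFP high the next gene below it was Insr, at 2.29 ± 0.374 CPM per kb. Of the 53 genes outside class III, 17 had no count in any library and 12 were tested. Of those tested 3 were higher, 1 was lower and 8 did not pass, against 12.0% of all genes called higher and 15.4% lower. With the block 5 were higher and 2 lower, against 20.7% and 21.0%. The growth factor receptor genes Insr (log2 fold change 0.58 ± 0.13, adjusted p = 0.00515) and Igf1r (1.43 ± 0.40, adjusted p = 0.0186) and Epha2 (0.67 ± 0.17, adjusted p = 0.00999) rose. Ryk, a WNT-binding receptor with an inactive kinase, fell by 2.17 ± 0.54 from 4.14 ± 1.82 to 0.912 ± 0.828 CPM (adjusted p = 0.0108).

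**Figure D2:**
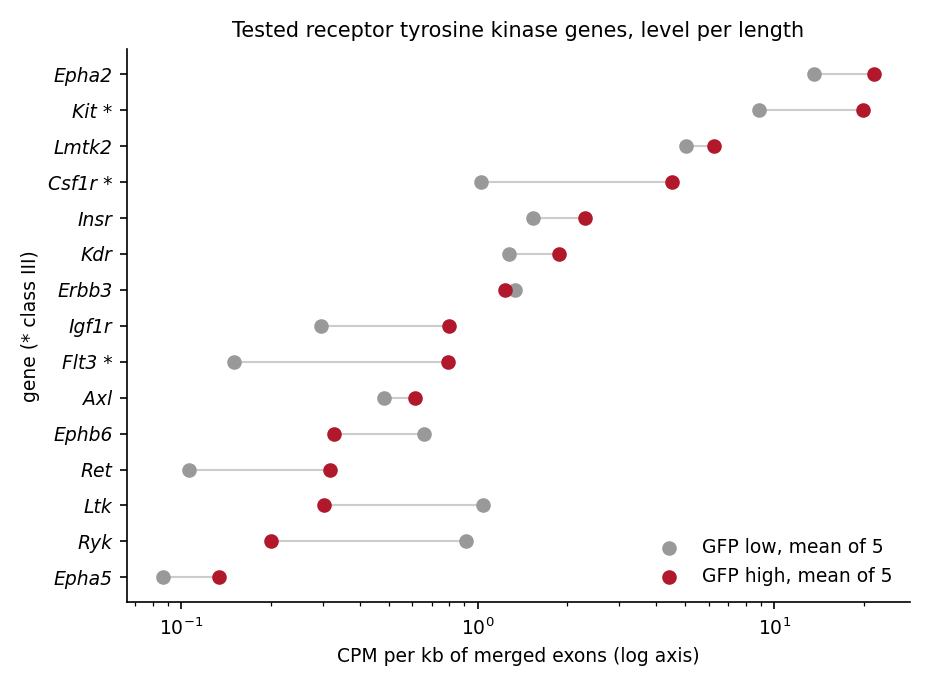
Mean level per length (CPM per kb of merged exons, log axis) of the 15 tested receptor tyrosine kinase genes in GFP low (grey) and GFP high (red), with class III genes starred. Kit stands second from the top at 8.85 and 19.9 CPM per kb, and Csf1r and Flt3 show wide gaps between the groups.

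Of 8 ligand genes, 7 had a count and 2 were tested. Kitl, the ligand of KIT, had 2 counts over all GFP high libraries and 10 over all GFP low libraries, and was at 0 in 6 of them. Flt3l was low, with 3.05 ± 0.723 CPM for GFP low and 3.32 ± 0.717 CPM for GFP high (log2 fold change 0.12 ± 0.27, adjusted p = 0.775). Csf1, the ligand of CSF1R, was by far the most abundant ligand transcript. It had 251, 275, 337, 92.7 and 89.9 CPM in GFP high libraries 1 to 5 and 184, 167, 205, 36.4 and 38.5 CPM in GFP low libraries 1 to 5. Libraries 4 and 5 were the lowest for Csf1 in both groups, whereas for Kit they were the highest. Csf1 was higher in GFP high in 5 of 5 pairs. Its log2 fold change of 0.73 ± 0.52 did not pass (edgeR, adjusted p = 0.327), and with the replicate block it did (0.87, adjusted p = 5.28e-05). Il34, the other CSF1R ligand, had 2 counts in all. The PDGF genes Pdgfa (36 counts in GFP high, 4 in GFP low), Pdgfb (4 and 0) and Pdgfc (19 and 33) were too low to test, and Pdgfd had none.

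**Figure D3:**
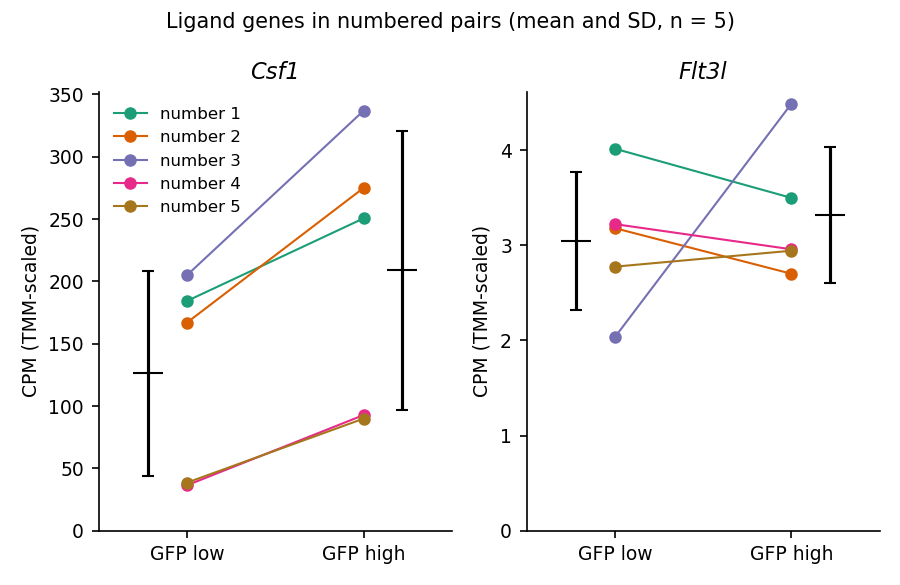
Levels of the tested ligand genes in CPM (linear axes from 0), drawn as for the receptors, with a line per numbered pair and the mean and SD of 5 libraries. Csf1 rises in every pair and falls into a lower pair of lines (libraries 4 and 5, 36.4 to 92.7 CPM) and a higher set (libraries 1 to 3, 167 to 337 CPM), while the lines of Flt3l cross.

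Downstream genes were read from lists of the pathway, beside a median log2 fold change of 0.030 over all 12772 tested genes. Of all tested genes 12.0% rose and 15.4% fell, and with the block 20.7% rose and 21.0% fell. Each list is read against these shares. The lists were chosen with earlier results of these data known, so a share that differs from these is a description only. Of 27 tested adaptors and proximal kinases, 5 rose, 2 fell and 20 did not pass (median 0.061), and 8 rose and 4 fell with the block. That is 18.5% higher against 12.0% of all genes and 7.4% lower against 15.4%, and with the block 29.6% against 20.7% and 14.8% against 21.0%. Tec, a cytoplasmic kinase that binds KIT, rose by 1.19 ± 0.15 from 33.4 ± 3.32 to 76.0 ± 16.7 CPM (adjusted p = 0.000142). The docking adaptor Gab1 (0.63 ± 0.14, adjusted p = 0.00551) and the SRC-family kinase Lyn (0.46 ± 0.13, adjusted p = 0.0181) rose too. Fer, a cytoplasmic tyrosine kinase, fell by 2.05 ± 0.40 to 1.24 ± 0.645 CPM (adjusted p = 0.00237), and the phospholipase gene Plcg1 fell by 0.64 ± 0.14 (adjusted p = 0.00407). The core adaptors Grb2 (0.12, adjusted p = 0.238) and Shc1 (0.022, adjusted p = 0.856) did not pass.

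Of 16 tested genes of the PI3-kinase and AKT branch, 3 rose, 1 fell and 12 did not pass (median 0.14), and 5 rose and 2 fell with the block. The 4 called genes are a share near the 27.5% called over all genes in either direction. By direction that is 18.8% higher against 12.0% of all genes and 6.2% lower against 15.4%. With the block it is 31.2% against 20.7% and 12.5% against 21.0%. The catalytic subunit Pik3cd of leukocytes rose by 0.57 ± 0.13 to 595 ± 78.9 CPM (adjusted p = 0.00565). The lipid phosphatase Inpp5d, or SHIP1, which opposes PI3-kinase, rose by 0.35 ± 0.065 (adjusted p = 0.00188). The regulatory subunit Pik3r3 fell by 1.05 ± 0.30 (adjusted p = 0.0203). In the RAS and MAPK branch 5 of 21 tested genes rose, 3 fell and 13 did not pass (median 0.00053), and 5 rose and 4 fell with the block. Without the block, 23.8% were higher against 12.0% of all genes and 14.3% lower against 15.4%. With the block, 23.8% higher and 19.0% lower lie near the 20.7% and 21.0% of all genes. The kinase gene Braf rose by 0.50 ± 0.12 (adjusted p = 0.00893).

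Of 29 tested negative regulators of these receptors, 7 rose, 1 fell and 21 did not pass (median 0.26), which is 24.1% higher against 12.0% of all genes and 3.4% lower against 15.4%. With the block 15 rose and 2 fell, or 51.7% against 20.7% and 6.9% against 21.0%. The docking protein gene Dok3 rose by 0.97 ± 0.10 from 225 ± 21.2 to 441 ± 61.4 CPM (adjusted p = 4.56e-05). The adaptors Sla2 (2.80 ± 0.54, adjusted p = 0.00222) and Sla (0.74 ± 0.22, adjusted p = 0.0242), which promote receptor degradation with CBL, rose. The phosphatase gene Ptpre rose by 0.93 ± 0.20 (adjusted p = 0.00382). Sh2b3, or LNK, an adaptor that restrains KIT and FLT3, was the member that fell (-0.46 ± 0.11, adjusted p = 0.0095). Cbl itself stood at 0.44 ± 0.16 on the log2 scale (adjusted p = 0.0559, and adjusted p = 0.0259 with the block). Of 8 JAK and STAT genes 5 rose and 0 fell (median 0.37), against 12.0% and 15.4% of all genes, and 6 rose and 0 fell with the block, against 20.7% and 21.0%. Stat3 rose by 0.60 ± 0.095 (adjusted p = 0.000649) and Stat6 by 0.50 ± 0.086 (adjusted p = 0.00117), and Jak1, Tyk2 and Stat5b were the others.

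**Figure D4:**
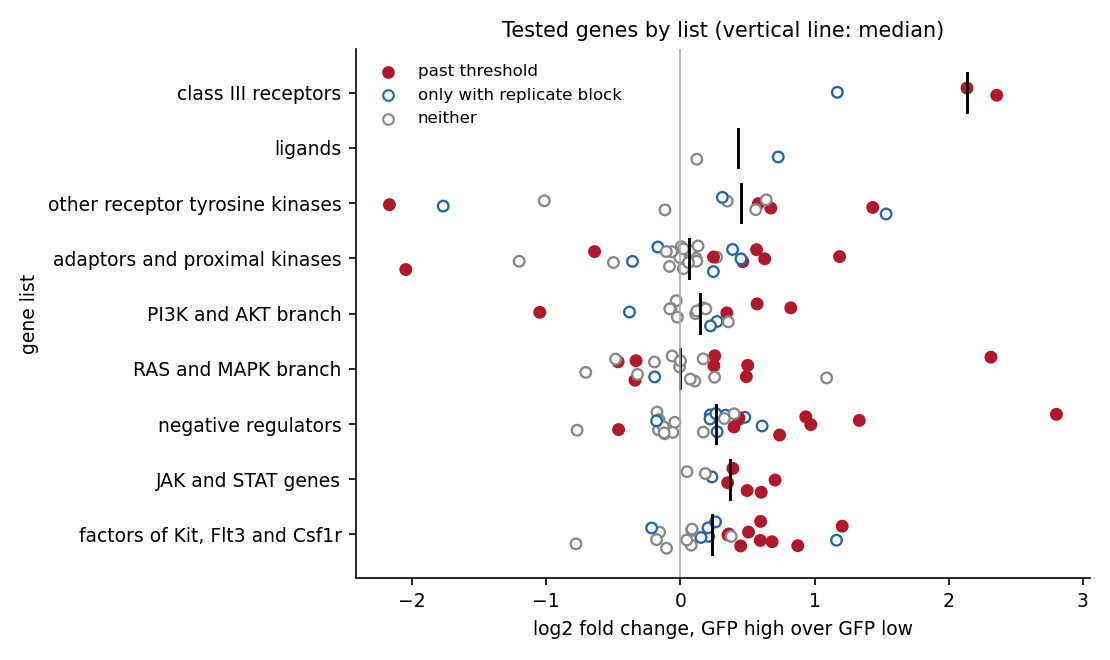
Log2 fold change (GFP high over GFP low) of each tested gene, by list, with a vertical line at the median of the list. Filled red points passed without the block, blue rings passed only with the replicate block and grey rings in neither fit, and among the lists drawn the 3 tested class III receptors have the median farthest to the right (2.14, against 0.46 for the other receptor tyrosine kinases and 0.43 for the ligands).

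Of 24 tested transcription factors known to act on Kit, Flt3 or Csf1r, 9 rose, 0 fell and 15 did not pass (median 0.24), which is 37.5% higher against 12.0% of all genes, and 15.4% of all genes fell. With the block 14 rose and 1 fell, or 58.3% against 20.7% and 4.2% against 21.0%. Spi1, which encodes PU.1, the main activator of Csf1r, rose by 0.45 ± 0.071 from 106 ± 6.80 to 145 ± 4.48 CPM (adjusted p = 0.00066). Runx1 rose by 0.68 ± 0.10 (adjusted p = 0.000423), Cebpb by 1.21 ± 0.37 (adjusted p = 0.0309) and Myb by 0.35 ± 0.12 (adjusted p = 0.0416). Lmo2, a bridging factor of the complex that activates Kit, rose by 0.88 ± 0.11 (adjusted p = 0.000132), and Foxo1 by 0.60 ± 0.080 (adjusted p = 0.000209). Of the other genes of that complex on the list, Gata2 had 8 counts over the GFP high libraries and 14 over the GFP low ones, Tal1 had 2 and 14, and Gata1 had 14 and 6. Ldb1 (93.6 ± 8.35 CPM with GFP high, 80.9 ± 5.04 with GFP low), Tcf3 (881 ± 43.0 and 831 ± 43.4 CPM) and the Tal1 paralogue Lyl1 (20.8 ± 2.57 and 23.2 ± 2.12 CPM) were expressed and did not pass, and Ldb1 rose with the block (0.21, adjusted p = 0.0255). Pax5 was not lower in GFP high (log2 fold change 0.26 ± 0.10, adjusted p = 0.0812, and adjusted p = 0.00352 with the block). Whether reads of the PAX5-ELN fusion count toward Pax5 is not stated in the labels. The activity of PAX5 and its part in the receptor levels were not tested.

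Kit had 0 other protein-coding genes within 200 kb. Pan3, a deadenylase subunit gene 29672 bases upstream of Flt3, rose by 0.57 ± 0.15 (adjusted p = 0.0131), and it was the single tested gene of 6 around Flt3. Around Csf1r 3 of 9 protein-coding genes were tested and 0 passed, without or with the block. These were Hmgxb3, Slc26a2 (0.25 ± 0.19, adjusted p = 0.361) and Ppargc1b (0.40 ± 0.22, adjusted p = 0.191). Around Pdgfra the single tested gene of 2, Chic2, stood at 0.14 ± 0.11 (adjusted p = 0.346). Besides Csf1r, Hmgxb3 and Slc26a2, Tcof1 was tested near Pdgfrb (-0.16 ± 0.10, adjusted p = 0.266).

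The genes whose profile over the 10 libraries lay nearest to each receptor were found by the root mean square difference of log2 CPM after centring each gene on its mean. For Kit, among 9462 protein-coding genes, these were Cd248 (difference 0.194), Nabp1 (0.262) and Nfe2 (0.270), against a median of 0.994. Cd248, which encodes the surface protein endosialin, had 16.8 to 65.97 CPM in GFP high and 7.78 to 33.8 CPM in GFP low, and libraries 4 and 5 were again the highest of each group. For Csf1r the nearest were Tmem163 (0.236), Csf2rb2 (0.238), which encodes a receptor chain of interleukin-3, and Pgf (0.251), a ligand of the VEGF receptor FLT1, against a median of 1.15. Pgf rose from 29.9 ± 7.98 to 155 ± 14.5 CPM. For Flt3 the nearest lay farther off: Ceacam2 (0.700), the Deltex gene Dtx4 (0.706) and I830077J02Rik (0.712), against a median of 1.70.

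Kit, Flt3 and Csf1r also mark other cell types, so markers of these were read beside them, and their part in the results was not tested. For Kit, 6 of 11 other mast cell and basophil markers were at 0 in all libraries (Mcpt4, Cma1, Tpsb2, Tpsab1, Fcer1a and Ms4a2), and the 11 summed to 2.60 to 9.18 CPM with GFP high, against 2.44 to 8.18 CPM with GFP low. Of 16 stem and early progenitor markers 5 were tested and 1, Satb1, rose, and with the block Ly6a rose too (block adjusted p = 0.0346). They summed to 141 to 189 CPM with GFP high, against 116 to 144 CPM with GFP low. For Csf1r, 18 monocyte and macrophage markers summed to 139 to 197 CPM with GFP high, against 164 to 207 CPM with GFP low. Of 11 tested, Ly6c2 rose (1.16 ± 0.35, adjusted p = 0.0286) and F13a1 fell (-1.01 ± 0.12, adjusted p = 7.1e-05). That is 9.1% higher against 12.0% of all genes and 9.1% lower against 15.4%. F13a1 was a large part of the sum and fell from 71.5 ± 4.21 to 35.6 ± 6.11 CPM. With the block 4 rose (Lyz2, Ly6c2, Cd68 and Ms4a6c) and 1 fell, or 36.4% against 20.7% and 9.1% against 21.0%. Lyz2 had 52.6 ± 17.6 CPM for GFP low and 67.9 ± 16.6 CPM for GFP high (block log2 fold change 0.39, adjusted p = 0.00259). The 14 neutrophil markers summed to 3.72 to 12.7 CPM with GFP high and 4.16 to 8.53 CPM with GFP low. Of 3 tested 0 passed. With the block 1 rose, S100a9 (block log2 fold change 1.30, adjusted p = 0.0375), or 33.3% against 20.7% of all genes.

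For Flt3, 12 other dendritic cell markers summed to 46.4 to 63.3 CPM with GFP high, against 47.6 to 53.8 CPM with GFP low, most of it Bst2, and Clec10a, Clec9a and Klk1 were at 0. Of 4 tested, 2 rose with Flt3, Siglech and Zbtb46, while 12.0% of all tested genes rose. A GFP low library held at most 4 counts of Siglech and 8 of Zbtb46. Both thus passed the filter on low counts only through GFP high. Their rise was largely set by that filter, and the share is not read as a result. The other tested markers, Bst2 (-0.16 ± 0.10, adjusted p = 0.276) and Cox6a2 (-0.38 ± 0.48, adjusted p = 0.596), did not pass. Siglech, a marker of plasmacytoid dendritic cells, had 1.46, 4.79, 5.75, 2.10 and 4.42 CPM in GFP high libraries 1 to 5 and 0 to 0.283 CPM in GFP low (log2 fold change 4.52 ± 0.61, adjusted p = 0.00023). Zbtb46, a factor of classical dendritic cells, had 2.35 to 4.85 CPM in GFP high and 0 to 0.629 CPM in GFP low (3.34 ± 0.67, adjusted p = 0.00297). Per length the GFP high means were 1.09 CPM per kb for Siglech, 0.367 for Zbtb46 and 0.791 for Flt3. The order of libraries differed: Flt3 was lowest in GFP high library 3, where Siglech was highest. Erythroid and megakaryocyte markers summed to 23.1 to 52.9 CPM with GFP high, against 12.8 to 29.6 CPM with GFP low, T and NK cell markers to 4.96 to 8.57 and 6.38 to 12.5 CPM. Hbb-bs, a haemoglobin gene, rose by 1.11 ± 0.38 (adjusted p = 0.0447), and with the block 2 erythroid markers rose. Of 6 tested erythroid and megakaryocyte markers this is 16.7% against 12.0% of all genes, and with the block 33.3% against 20.7%. Lck, a T-cell kinase gene, fell by 1.55 ± 0.51 (adjusted p = 0.0390), and with the block 2 T and NK cell markers fell. Of 3 tested T and NK cell markers this is 33.3% lower against 15.4% of all genes, and with the block 66.7% against 21.0%. Stroma and endothelium markers summed to 286 to 331 CPM with GFP high, against 190 to 239 CPM with GFP low, most of it Pecam1, which rose by 0.81 ± 0.086 (adjusted p = 4.46e-05). Other endothelial markers were low: over the GFP high and GFP low libraries Cdh5 had 14 and 23 counts, Vwf 8 and 11, and Emcn 22 and 2. Kdr was expressed, at 17.0 ± 6.82 and 11.5 ± 7.76 CPM, and did not pass (adjusted p = 0.318). Alpl, which encodes the alkaline phosphatase of bone-forming cells, fell by 1.33 ± 0.27 from 54.6 ± 12.0 to 21.7 ± 9.20 CPM (adjusted p = 0.00342). Of the pericyte and fibroblast markers Cspg4 and Dcn were at 0, and others had counts. Over the GFP high and GFP low libraries Cxcl12 had 240 and 68 counts, Acta2 44 and 43, and Col1a2 38 and 32. Col1a1 had 44 and 6 counts, Lepr 36 and 4, Rgs5 0 and 4, Lum 0 and 2, and Col3a1 2 and 0. Only Cxcl12 of these was tested, and it did not pass (1.95 ± 1.16, adjusted p = 0.236).

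**Figure D5:**
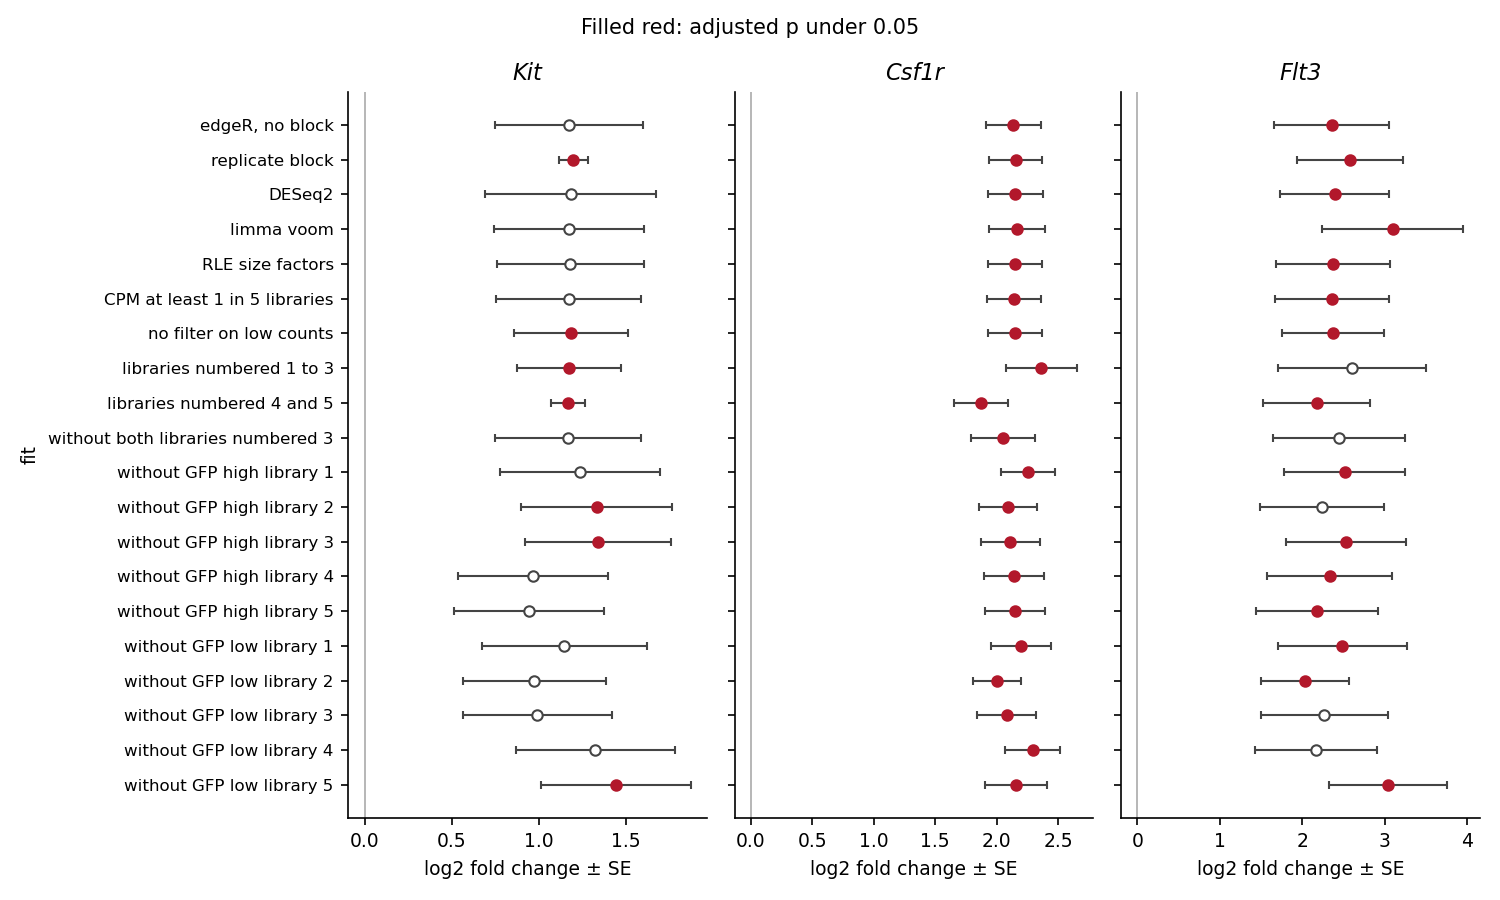
Log2 fold change and SE of Kit, Csf1r and Flt3 in 20 fits that differ in test, scaling, filter or libraries, with filled red points where the adjusted p was under 0.05. Csf1r is filled in each, Kit lies at 0.94 to 1.44 and is filled in some, and Flt3 lies at 2.03 to 3.10.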

How the data were processed

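Libraries of polyadenylated RNA were made with a SMART-Seq kit for low inputs, per the labels' protocols. The authors deposited whole-number counts per Ensembl gene, not normalized. The submitters' processing notes name mm10, STAR, featureCounts and DESeq2, without roles or settings. Symbols, spans and merged exon lengths came from GENCODE M21 (GRCm38), which matched 99.833% of identifiers. Libraries were grouped by title. The lowest chi-square per gene between libraries of a group was 7.33, so none was counted as a repeat.

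Genes were filtered by filterByExpr, scaled by TMM and tested with the quasi-likelihood test of edgeR 4.0.16 in R 4.3.3 without covariates. P-values were Benjamini-Hochberg adjusted over 12772 genes with a threshold of 0.05. CPM uses TMM-scaled library sizes. A positive fold change means more in GFP high. The pairs of same-numbered libraries rest on the correlations given with the depth, which exceeded 0.1 in 5 of 5, and 10 of 10 libraries correlated best with their own number. The test was tested on simulated data. Alternatives were the replicate block, DESeq2 1.42.0, limma voom 3.58.1, RLE scaling, other filters and omission of libraries.

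Members and lists were chosen with earlier results of these data known. The text names the receptors, ligands with a count, 2 genes of lowest p per pathway list (1 per direction where both passed), the 3 nearest profiles per tested receptor among protein-coding genes of at least 5 CPM (prior count 2), and tested protein-coding genes within 200 kb. Any further gene was picked with its values known. Some genes these rules select are not reported here. Motifs were chosen likewise, and windows used 1 start per gene.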

Additional observations from a re-analysis of the deposited data

Results flagged for a closer look

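In groups of 5 libraries, a value was singled out where its gap to the nearest other library exceeded 0.71 of the range of the group. Of 72 groups of named genes 3 were, and chance gives about 1 in 20. None of them is a class III receptor gene. Ryk had 2.33 CPM in GFP high library 1 against 0.311 to 0.866 in the others (gap 0.726 of the range). Tec had 27.6 CPM in GFP low library 2 against 33.9 to 36.0 (gap 0.745). Dok3 had 261 CPM in GFP low library 1 against 208 to 223 (gap 0.724).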

How the results depend on the processing

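Csf1r kept its direction and its call in 25 of 25 alternatives (log2 fold change 1.87 to 2.36). Kit kept its direction in 25 of 25 and passed in 13. Without the block it passed with no filter on low counts (1.18), in libraries 1 to 3 (1.17) and in libraries 4 and 5 (1.17). With the replicate block it was 1.20, with the block and no filter 1.21, and with the block and both libraries of number 1, 2, 3, 4 or 5 left out 1.27, 1.12, 1.21, 1.17 and 1.23. Leaving out 1 library moved Kit between 0.94 and 1.44, and 3 of 10 such fits passed. Flt3 kept its direction in 25 of 25 and lost its call in 5, in libraries 1 to 3 (2.60), without both libraries numbered 3 (2.45) and in 3 of 10 fits without 1 library, which ranged from 2.03 to 3.04. The cause of these changes was not tested. The fits that combine the block with no filter, or with both libraries of a number left out, and the ratio of Kit to Csf1r with its omissions, were chosen after seeing the data. The count of genes higher in GFP high moved from 1538 to 926 without both libraries numbered 3, to 2645 with the replicate block, to 2808 with the block and no filter, and to 2526 and 2511 with the block and both libraries of number 1 or 5 left out. Leaving out 1 library gave 1189 to 1479 higher. The count lower was 1367 to 2688. The Flt3l log2 fold change turned sign without GFP high library 3 (-0.010), without both libraries numbered 3 (-0.12), with the block without them (-0.12) and in libraries 4 and 5 (-0.039), and leaving out 1 library gave -0.010 to 0.24. Over 33 other named genes 786 of 825 values kept direction and call, 15 lost the call and 20 gained it. Pdgfra and Pdgfrb gave no value in filtered fits. Depth limits Flt3, Kitl and the PDGF genes.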
